A study of Rattus norvegicus with 15 samples.

Results

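Runx2, Sp7, Dlx5, Msx2 and Twist1 are 5 transcription factor genes that act in bone-forming osteoblasts. They were chosen by name, and all 5 were found among the 30454 genes measured by RNA sequencing of rat femurs. There were 15 libraries, 3 in each of 5 groups. All rats were female SD rats, 8 weeks old at the start, kept for 7 days to adapt before surgery, and treated by daily gavage for 8 weeks after 6 weeks of recovery. Sham rats kept their ovaries, lost a matching piece of fat and were given saline. OVX rats lost both ovaries, the main source of estrogen, and were given saline. The other 3 groups were ovariectomised too: J was given 1.6 g/kg per day of a Juglans regia (walnut) extract, P 2.4 g/kg per day of a Psoralea corylifolia extract, and PJ 4.0 g/kg per day of the combination. Whether the 3 libraries of a group are 3 rats is not stated in the labels, and p-values here reflect only how libraries vary, which may be technical.

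Runx2 commits mesenchymal precursors to the osteoblast lineage and binds DNA with its partner Cbfb. Sp7 (osterix), a zinc finger factor, acts after Runx2 and is needed for bone formation. Dlx5 and Msx2 are homeodomain factors induced by bone morphogenetic proteins (BMPs); Dlx5 activates osteoblast genes, and Msx2 can bind the same sites and repress them. Twist1 is a basic helix-loop-helix factor of mesenchyme that binds Runx2 and holds back its activity in early precursors.

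Runx2 is transcribed from 2 start sites, a distal one known for the bone isoform and a proximal one, and the level per gene used here adds both. The 250 bases before each start that RefSeq gives for the members are shown to set the starts of Runx2 beside those of Msx2 and Twist1. Whether these sequences bear on the levels in any group was not tested. RefSeq windows were matched for 3 of the 5 members, in build GRCr8, which is not the build of the expression files. Capitals mark the RUNX motif ACCACA or its reverse complement TGTGGT. The windows lie on the plus strand at chr9:23664808-23665057 and chr9:23742990-23743239 for Runx2, chr17:11102034-11102283 for Msx2 and chr6:56402059-56402308 for Twist1.
Runx2, distal start: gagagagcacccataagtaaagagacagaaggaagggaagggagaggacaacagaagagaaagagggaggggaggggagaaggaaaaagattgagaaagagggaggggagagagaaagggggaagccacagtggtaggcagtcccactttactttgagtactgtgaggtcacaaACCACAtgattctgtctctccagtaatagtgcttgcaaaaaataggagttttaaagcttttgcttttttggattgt
Runx2, proximal start: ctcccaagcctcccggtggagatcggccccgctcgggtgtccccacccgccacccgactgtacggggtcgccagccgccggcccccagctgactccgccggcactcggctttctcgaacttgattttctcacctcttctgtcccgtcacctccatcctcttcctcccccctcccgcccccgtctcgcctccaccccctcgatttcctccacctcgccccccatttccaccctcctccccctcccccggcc
Msx2: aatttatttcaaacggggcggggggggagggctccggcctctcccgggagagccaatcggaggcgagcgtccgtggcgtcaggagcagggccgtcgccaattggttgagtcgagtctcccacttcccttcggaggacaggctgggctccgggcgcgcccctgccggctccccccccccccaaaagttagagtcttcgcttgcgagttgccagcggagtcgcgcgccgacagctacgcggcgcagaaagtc
Twist1: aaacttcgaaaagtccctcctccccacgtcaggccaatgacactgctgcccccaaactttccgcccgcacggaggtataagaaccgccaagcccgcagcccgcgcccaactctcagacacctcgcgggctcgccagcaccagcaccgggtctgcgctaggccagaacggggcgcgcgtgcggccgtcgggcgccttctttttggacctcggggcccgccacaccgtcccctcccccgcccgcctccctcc
The distal Runx2 window held 1 copy of the RUNX motif, and the other 3 windows held 0 copies. Among all 33469 windows of this length, 14.5% held at least 1 copy on either strand. The starts of Runx2 are 78182 bases apart, and their windows differed in G and C content, at 45.6% for the distal and 70.0% for the proximal one, against a median of 51.2% over all windows. The windows of Msx2 and Twist1 had 67.6% and 69.2%. The GC box GGGCGG, searched on both strands, was found in the proximal Runx2 window, in Msx2 and in Twist1 but not in the distal Runx2 window, and 30.5% of all windows held it. The letters TAATTG, a homeodomain core, and TATAAA were in none of the 4 windows on either strand, against 7.31% and 12.9% of all windows. These matches describe letters and show neither binding nor which start was used.

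Library totals recovered from the deposited values ran, in units of 1000000 reads, from 34.4 to 61.0, and all 7 osteoblast markers (Col1a1, Col1a2, Bglap, Ibsp, Alpl, Spp1 and Phex) were above 0 in every library. Other tissue in the femurs differed between groups. The summed FPKM (fragments scaled to gene length and library total, so that levels of genes can be compared) of 7 chondrocyte markers was 1239 to 2885 in Sham and 0.783 to 1.68 in OVX, where Acan was at 0 in 1 library and Col9a1, Matn1 and Ucma in 2 libraries each. In J it was 1.17 to 90.3, in P 13.9 to 1322 and in PJ 0.769 to 363.1. The sum of 5 joint surface and tendon markers was 3284 to 7634 in Sham and 3.95 to 13.0 in OVX, with Tnmd at 0 in all 3 OVX libraries. The sum of 5 erythroid markers went the other way, 21.4 to 93.3 in Sham, 3205 to 4353 in OVX, 1666 to 2144 in J, 444.9 to 1036 in P and 79.7 to 518.8 in PJ. Neutrophil marker sums were 37.5 to 98.6 in Sham, 2573 to 2858 in OVX, 1131 to 3176 in J, 556 to 926 in P and 280.9 to 1332 in PJ. Endothelial marker sums were 291.2 to 506.7 in Sham, 51.6 to 70.3 in OVX, 110.7 to 145.8 in J, 202.8 to 242.9 in P and 163.2 to 326.7 in PJ. The P and PJ libraries, in which 4 of the 5 genes were high, thus had lower erythroid and neutrophil and higher endothelial marker sums than every OVX library. Osteoclast marker sums were 73.97 to 2000 in Sham, 56.6 to 166.3 in OVX, 332.3 to 984.3 in J, 482.1 to 2177 in P and 1009 to 2489 in PJ. Adipocyte marker sums were 218.6 to 1108, 37.7 to 601.4, 501.5 to 1040, 252.3 to 2381 and 1581 to 2386 in the same order of groups. The part of these differences in the results on the 5 genes was not tested. In such bulk samples, fewer osteoblasts, less RNA per osteoblast and a differing content of other tissue cannot be told apart.

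Bone cell markers differed too, between groups and within them. The summed FPKM of the 7 osteoblast markers was 306.1 to 620.6 in OVX and 2267 to 2962 in J. It was 1444 or more in every P library and 1414 or more in every PJ library. All J, P and PJ libraries were thus above OVX in this sum. Of the single markers, only Spp1 was above OVX in all J, P and PJ libraries. Bglap, for example, was 32.9 to 173 in OVX and as low as 69.6 in P. The sum was 5831 in Sham 3 against 800.9 in Sham 1 and 469.9 in Sham 2. It was 1444 in P 2 against 10721 in P 1 and 6057 in P 3, and 1414 in PJ 3 against 7304 in PJ 1 and 4756 in PJ 2. Sham 3, P 2 and PJ 3 therefore stood apart from their groups, and results that rest on them are given with and without them. Sham 3 was picked as high and P 2 and PJ 3 as low, so leaving out all 3 moves P and PJ up from Sham in this sum.

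Runx2 (ENSRNOG00000020193) had an FPKM of 8.04, 7.60 and 27.9 in Sham 1, 2 and 3, and of 5.74, 6.46 and 7.74 in OVX. It had 13.3, 7.17 and 17.8 in J, 29.5, 9.94 and 23.3 in P, and 34.4, 24.8 and 15.0 in PJ. Sham 2 lay within the range of OVX and Sham 1 just above it, and Sham 3 lay among the P and PJ libraries. Every P and PJ library was above every OVX library.

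Sp7 (ENSRNOG00000014082) had an FPKM of 2.66, 1.86 and 16.6 in Sham, of 1.55, 2.71 and 1.40 in OVX, and of 4.96, 2.77 and 9.97 in J. It had 15.1, 6.11 and 21.1 in P and 14.1, 12.7 and 10.4 in PJ. All J, P and PJ libraries were above the 3 OVX libraries, though J 2 by little, and the Sham libraries spanned the range from OVX to P.

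Dlx5 (ENSRNOG00000010905) had an FPKM of 15.1, 15.0 and 31.5 in Sham against 1.40, 4.27 and 7.21 in OVX. It had 10.8, 4.87 and 15.1 in J, 21.0, 14.8 and 24.7 in P, and 25.7, 22.1 and 18.9 in PJ. Sham and OVX did not overlap, nor did OVX overlap with P or PJ.

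Twist1 (ENSRNOG00000011101) had an FPKM of 6.20, 9.14 and 15.0 in Sham against 1.31, 2.83 and 3.45 in OVX. It had 8.68, 4.57 and 7.39 in J, 14.9, 10.8 and 13.2 in P, and 18.1, 14.9 and 8.94 in PJ. OVX did not overlap with any of the other 4 groups, and J lay below P and PJ. How many of all genes separate between groups in this way was not counted, for Twist1 or for the other members.

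Msx2 (ENSRNOG00000018355) was the lowest of the 5 genes per length, with a mean FPKM of 0.981 over the 15 libraries against 8.26 to 15.9 for the others. It had an FPKM of 2.12, 5.14 and 1.63 in Sham, of 0, 0.246 and 0.443 in OVX and of 0.796, 0.462 and 0.139 in J. It had 0.0248, 1.53 and 0.628 in P and 0.997, 0.330 and 0.228 in PJ. Every Sham library was above every library of the other 4 groups. Behind these values were 707 reads in Sham, 60 in OVX, 114 in J, 212 in P and 175 in PJ. OVX 1 had 0 reads, which allows an FPKM of up to 0.0353 at a floor of 3 reads, and P 1 had 2 reads, under that floor. Floors cover counting error only.

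**Figure D1:**
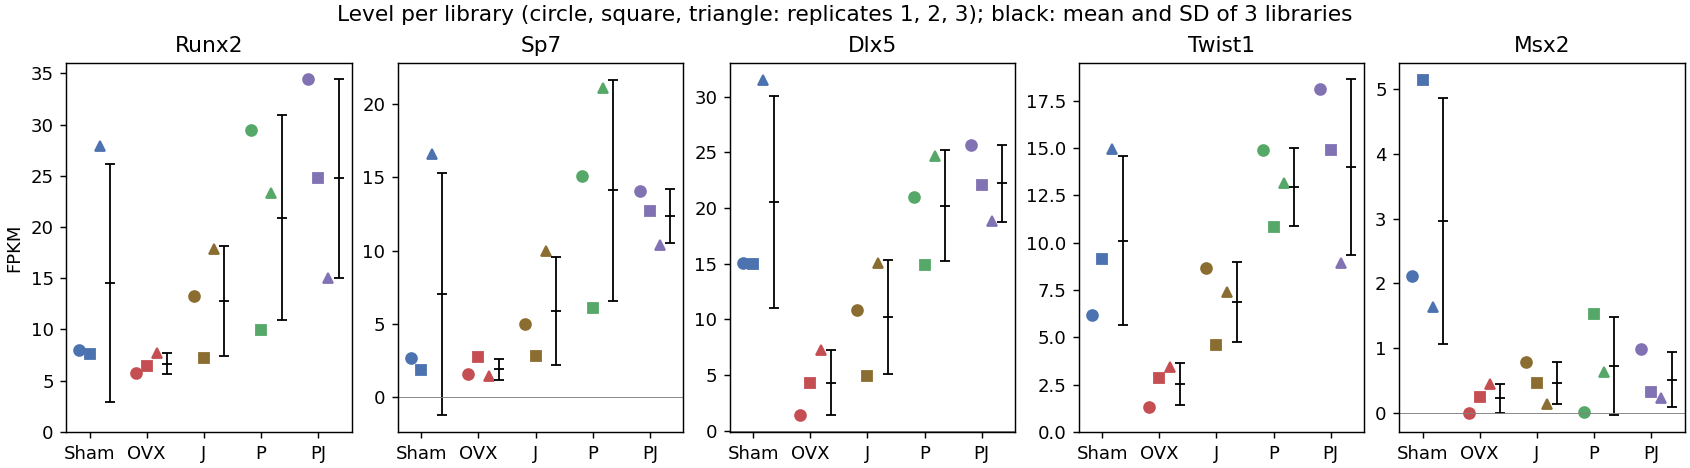
FPKM of each of the 5 genes (vertical axes, linear, a scale for each gene) in the 5 groups (horizontal axis), with circles, squares and triangles for replicates 1, 2 and 3 and black marks for the mean and SD of 3 libraries. Runx2, Sp7, Dlx5 and Twist1 are low in OVX and high in P and PJ, Sham 3 is the highest Sham library in these 4, and Msx2 is highest in Sham (1.63 to 5.14).

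In OVX against Sham, which asks what loss of the ovaries changed, Dlx5 and Twist1 fell, while Runx2 and Sp7 did not pass the test. Dlx5 had a mean FPKM of 4.29 ± 2.91 in OVX and 20.5 ± 9.51 in Sham (SD, n = 3 each), and fell by 2.11 ± 0.45 (SE) on the log2(FPKM + 1) scale, with a limma adjusted p of 0.00156. Twist1 had 2.53 ± 1.10 against 10.1 ± 4.46 and fell by 1.63 ± 0.34, with an adjusted p of 0.00132. Thus 2 of the 4 members with a mean FPKM of at least 1 fell, where 28.9% of all 14416 genes tested were called lower and 25.3% higher. The median difference of the 4 members was -1.32, against -0.04 over all genes tested.

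Runx2 had a mean of 6.65 ± 1.01 in OVX and 14.5 ± 11.6 in Sham, a log2 difference of -0.79 with a 95% interval from -1.87 to 0.30 and an adjusted p of 0.207. Sp7 had 1.89 ± 0.72 and 7.03 ± 8.28, a difference of -1.01 with an interval from -2.33 to 0.32 and an adjusted p of 0.187. Both rested on Sham 3: without it the differences were -0.21 (adjusted p = 0.723) for Runx2 and -0.19 (0.768) for Sp7. Without Sham 3, Dlx5 was still lower by a log2 difference of -1.77 (adjusted p = 0.00833) and Twist1 by -1.33 (0.00675).

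The mean level of Msx2 was too low for the filter, so its test comes from the fit with no filter. There it fell by 1.60 ± 0.37 (SE), with an adjusted p of 0.00427, where 20.8% of 24207 genes were called lower. The mean FPKM of Msx2 was 12.9 times as high in Sham as in OVX, 2.96 ± 1.90 against 0.23 ± 0.22 (SD, n = 3 each). The difference on the log2(FPKM + 1) scale is smaller, since the added 1 weighs on low values. Without Sham 3, the lowest Sham library, it was -1.85 (adjusted p = 0.00376).

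P against OVX asks what the Psoralea extract changed after ovariectomy. All 4 tested members rose, where 24.2% of all genes tested were called higher. Twist1 rose from a mean FPKM of 2.53 to 13.0 ± 2.06 (SD, n = 3), a log2 difference of 2.03 ± 0.34 (SE) with a limma adjusted p of 0.000661. Dlx5 rose to 20.2 ± 4.99, by 2.14 ± 0.45 (adjusted p = 0.00271), and Sp7 to 14.1 ± 7.56, by 2.27 ± 0.61 (0.0111). Runx2 rose to 20.9 ± 9.98, by 1.40 ± 0.50, with an adjusted p of 0.0418. The call on Runx2 was lost in 9 of 26 alternative analyses, with an adjusted p of up to 0.148 without P 1. It was 0.115 without P 3, 0.113 without OVX 1, 0.0942 without OVX 2 and 0.0644 without OVX 3, 0.0537 without J 1, 0.0525 without PJ 2, 0.0702 with no filter and 0.0524 after rescaling to TPM (levels per length brought to a common library sum). Msx2 did not pass, with 0.729 ± 0.760 in P and a difference of 0.41 (95% interval -0.39 to 1.21, adjusted p = 0.475). Its mean FPKM in P was 3.17 times that in OVX, where that of Runx2 was 3.15 times. The added 1 makes the log2 difference of so low a gene small. Over the alternatives this difference of Msx2 ran from 0.09 to 1.94, and it passed in 0 of 24.

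PJ against OVX asks the same of the combined extracts. Again all 4 tested members rose, where 29.8% of all genes tested were called higher. Twist1 reached a mean FPKM of 14.0 ± 4.65 (SD, n = 3), a log2 difference of 2.09 ± 0.34 (SE) with an adjusted p of 0.000418. Dlx5 reached 22.2 ± 3.43 (2.29 ± 0.45, adjusted p = 0.00145), Sp7 12.4 ± 1.85 (2.23 ± 0.61, 0.0106) and Runx2 24.7 ± 9.68 (1.69 ± 0.50, 0.0160). Runx2 lost its call without OVX 1 (adjusted p = 0.0521) and without PJ 1 (0.0658). Msx2 had 0.518 ± 0.418 and a difference of 0.29 (95% interval -0.52 to 1.09, adjusted p = 0.637), with a mean FPKM 2.26 times that in OVX. The comparisons of J, P and PJ with OVX share the 3 OVX libraries, and the median differences of the 4 tested members in them were 1.14, 2.09 and 2.16, against 0.11, 0.12 and 0.22 over all genes tested.

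In J against OVX, the comparison for the walnut extract, limma called 0 of the 4 tested members, and voom on recovered reads called 0 as well. At an unadjusted p under 0.05 there were 2, Dlx5 and Twist1. Of all genes tested, 6.06% were called and 3.27% were called higher. Twist1 came closest, with a mean FPKM of 6.88 ± 2.10 (SD, n = 3) and a log2 difference of 1.17 (95% interval 0.44 to 1.91, adjusted p = 0.0595). Its adjusted p ran from 0.0044 to 0.227 over the alternatives and was 0.0460 without Sham 3 and 0.0380 without PJ 3. Dlx5 had 10.2 ± 5.12 and a difference of 1.14 (0.16 to 2.12, adjusted p = 0.142). Sp7 had 5.90 ± 3.70 (1.15, interval -0.18 to 2.47) and Runx2 12.8 ± 5.35 (0.77, interval -0.31 to 1.86). Sp7 had an adjusted p of 0.263, and Runx2 one of 0.352. With array weights, or without Sham 3, P 2 and PJ 3 together, 2 of the 4 were called. Of all 14416 genes tested, 3934 and 2881 were called in these 2 settings, against 873 in the main fit. Msx2, at 0.466 ± 0.328, differed by 0.24 (interval -0.56 to 1.05, adjusted p = 0.829), with a mean FPKM 2.03 times that in OVX.

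Treated groups were also set against Sham, which asks how far the levels were from those of rats with ovaries. In J, P and PJ against Sham, limma and voom each called 0 of the 4 tested members, and 0 had an unadjusted p under 0.05, where 43.9%, 7.80% and 11.2% of all genes tested were called. For Dlx5 the differences were -0.97 in J (95% interval -1.95 to 0.01), 0.03 in P (-0.95 to 1.01) and 0.18 in PJ (-0.80 to 1.16). The sign in P against Sham turned under TPM (-0.05) and median-ratio scaling (-0.06), and that in PJ under median-ratio scaling (-0.01). For Sp7 they were 0.14 in J (-1.19 to 1.47), 1.26 in P (-0.07 to 2.59) and 1.23 in PJ (-0.10 to 2.55). Without Sham 3, Sp7 was higher than in Sham by 2.08 in P (adjusted p = 0.0189) and by 2.04 in PJ (0.0175), and Runx2 by 1.47 in PJ (0.0465). For Runx2 the differences were -0.01 in J (95% interval -1.10 to 1.08), 0.62 in P (-0.47 to 1.70) and 0.90 in PJ (-0.19 to 1.99), and that in J was 0.56 without Sham 3. For Twist1 they were -0.46 in J (-1.19 to 0.28), 0.40 in P (-0.34 to 1.14) and 0.46 in PJ (-0.28 to 1.20). Of these 4 members, 2 were called in P and 3 in PJ against Sham with array weights. Beside them 6090 and 6959 of all 14416 genes tested were called. Without Sham 3, P 2 and PJ 3 together 2 members were called in each, beside 4528 and 3305 of all genes tested. Leaving out these 3 libraries lowers Sham and raises P and PJ in the 4 members. Msx2, which the filter left out, is not in these counts.

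In the fit with no filter, Msx2 was called against Sham in J but not in P or PJ, and all 3 outcomes depended on the analysis. Its unadjusted limma p was 0.00313 in J, 0.00715 in P and 0.00383 in PJ. The adjustment runs over all 24207 genes, of which 3538, 248 and 434 were called lower in these comparisons. Msx2 was lower in J than in Sham by a log2 difference of -1.36 ± 0.37 (SE, adjusted p = 0.0154), where 14.6% of genes were called lower. In P and PJ it was -1.19 (95% interval -1.99 to -0.39, adjusted p = 0.10) and -1.32 (-2.12 to -0.52, 0.0589), neither of which passed. Both passed with array weights, at -1.72 in P (adjusted p = 0.00675) and -1.36 in PJ (0.0154), and without Sham 3, P 2 and PJ 3 together, at -1.76 (0.0146) and -1.43 (0.043). The call in J was lost without Sham 2 (-0.99, adjusted p = 0.0648) or J 3 (0.0621), with voom (0.0989), with a pseudocount of 0.1 (0.0682) and in a fit of the groups compared alone (0.0642). Without P 2 the difference in P was -1.52 (adjusted p = 0.0297), and without Sham 3 that in PJ was -1.56 (0.0363). In PJ, leaving out P 1 or P 2, which enter only through the pooled spread, gave adjusted p-values of 0.0466 and 0.0319.

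Between the extracts, limma and voom called 0 of the 4 tested members. P against J had 2 members at an unadjusted p under 0.05 and PJ against J had 2, in both Dlx5 and Twist1, where 7.42% and 14.3% of all genes tested were called. Twist1 was 0.91 higher in PJ than in J (95% interval 0.17 to 1.65, adjusted p = 0.0887) and 0.85 higher in P than in J (0.11 to 1.59, 0.125). Without PJ 3, the difference of Twist1 between PJ and J was 1.18 (adjusted p = 0.0299). For PJ against P, 0% of all genes tested were called (0 of 14416, and 296 at an unadjusted p under 0.05). The members' intervals in PJ against P were -0.80 to 1.37 for Runx2, -1.36 to 1.29 for Sp7, -0.83 to 1.13 for Dlx5, -0.68 to 0.80 for Twist1 and -0.93 to 0.68 for Msx2. With array weights, which give less weight to libraries far from their group, 2 members were called in P against J and 4 in PJ against J. With these weights 4197 and 7405 of all 14416 genes tested were called, against 1069 and 2056 in the main fit. Without Sham 3, P 2 and PJ 3 together 3 members were called in each, beside 3154 and 5378 of all genes tested. Leaving out P 2 and PJ 3 raises P and PJ in the 4 members. The extract doses differ between these groups.

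Additivity asks whether PJ equals the sum of the differences of J and P from OVX. It was called for 0 of 4 tested members by limma and by voom, and for 0% of all genes tested. Twist1 was the 1 member at an unadjusted p under 0.05, with -1.11 on the log2 scale (95% interval -2.16 to -0.07, adjusted p = 0.510). The terms of the others were -0.49 for Runx2 (-2.03 to 1.05), -1.18 for Sp7 (-3.06 to 0.70) and -0.99 for Dlx5 (-2.38 to 0.39). The median of the 4 was -1.05, against -0.01 over all genes tested. Over all 5 groups at once, the F test of limma called 3 of 4 members, where 50.0% of all genes tested were called. They were Twist1 (adjusted p = 0.0012), Dlx5 (0.00366) and Sp7 (0.0312), while Runx2 had 0.0767. Msx2 had 0.0282 with no filter, where 32.4% of genes were called.

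**Figure D2:**
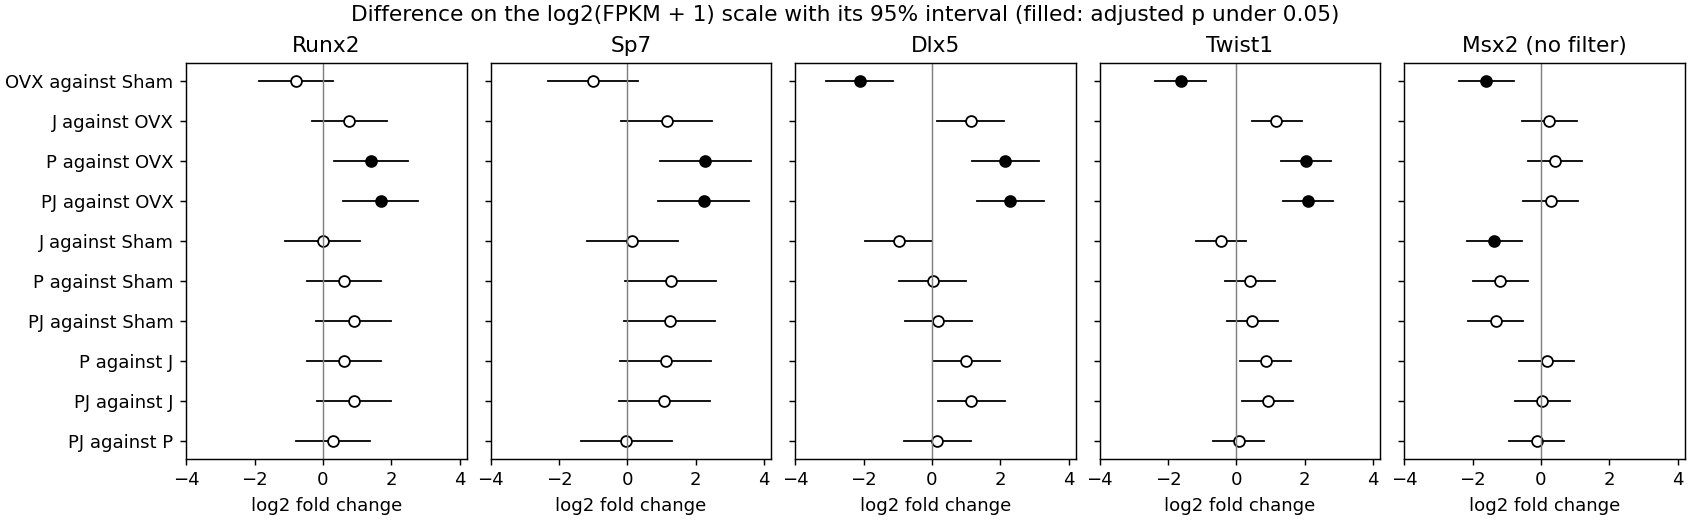
Differences between groups on the log2(FPKM + 1) scale (horizontal axes) for 10 comparisons (vertical axis) and the 5 genes, as points with 95% intervals, filled where the adjusted p is under 0.05 and for Msx2 from the fit with no filter. P and PJ against OVX are filled for Runx2, Sp7, Dlx5 and Twist1 (1.40 to 2.29), while Msx2 is filled only against Sham, in OVX (-1.60) and J (-1.36).

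Ranked by mean FPKM, the groups came in the order PJ, P, Sham, J and OVX for Runx2 and Twist1, P, PJ, Sham, J and OVX for Sp7, PJ, Sham, P, J and OVX for Dlx5, and Sham, P, PJ, J and OVX for Msx2. OVX was the lowest group for each of the 5 genes. The place of Sham above J for Runx2 and Sp7 rested on Sham 3: without it the Sham mean was 7.82 for Runx2 and 2.26 for Sp7, below the J means of 12.8 and 5.90. For Twist1 it was 7.67, above the 6.88 of J. For Dlx5 it was 15.0, below the 20.2 of P. Means of FPKM also give high libraries more weight than means of logs do. On the log2(FPKM + 1) scale Sp7 in J was 0.14 above Sham and Dlx5 in P 0.03 above Sham, the opposite of their order by mean FPKM. No neighbours in these orders passed the test, with adjusted p-values from 0.0595 (Twist1, J and OVX) upward.

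Within groups, the order of the libraries was also compared between the genes. Sham 3, with the highest sum of osteoblast markers in Sham, was the highest Sham library for Runx2, Sp7, Dlx5 and Twist1 and the lowest for Msx2. P 2, with the lowest sum in P and the highest chondrocyte marker sum of that group (1322 against 13.9 and 33.9), was the lowest P library for the 4 genes and the highest for Msx2. PJ 3, lowest in both marker sums within PJ, was the lowest for all 5. The highest library was 8.94 times the lowest for Sp7 within Sham and 3.68 times for Runx2, but 1.35 times for Runx2 within OVX. Each such pattern rests on 3 libraries a group and was not tested.

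Levels were also set against Runx2 within each library. The FPKM ratio of Dlx5 to Runx2 was 1.88, 1.97 and 1.13 in Sham and 0.243, 0.661 and 0.932 in OVX, with no overlap. The ratio of Twist1 to Runx2 was 0.772, 1.20 and 0.535 in Sham and 0.228, 0.438 and 0.446 in OVX, again with no overlap. The ratio of Sp7 to Runx2 was 0.330, 0.244 and 0.593 in Sham and 0.269, 0.419 and 0.181 in OVX, which overlapped, and 0.512, 0.614 and 0.907 in P, all above OVX. In J it was 0.373, 0.386 and 0.559 and in PJ 0.408, 0.513 and 0.690, and both overlapped OVX. The Dlx5 ratio overlapped OVX in J, P and PJ. The Twist1 ratio overlapped OVX in J but not in P or PJ.

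These ratios are given as a description. With 3 libraries against 3, an exact two-sided permutation test cannot give a p below 0.10, so it could not call any of them.

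**Figure D3:**
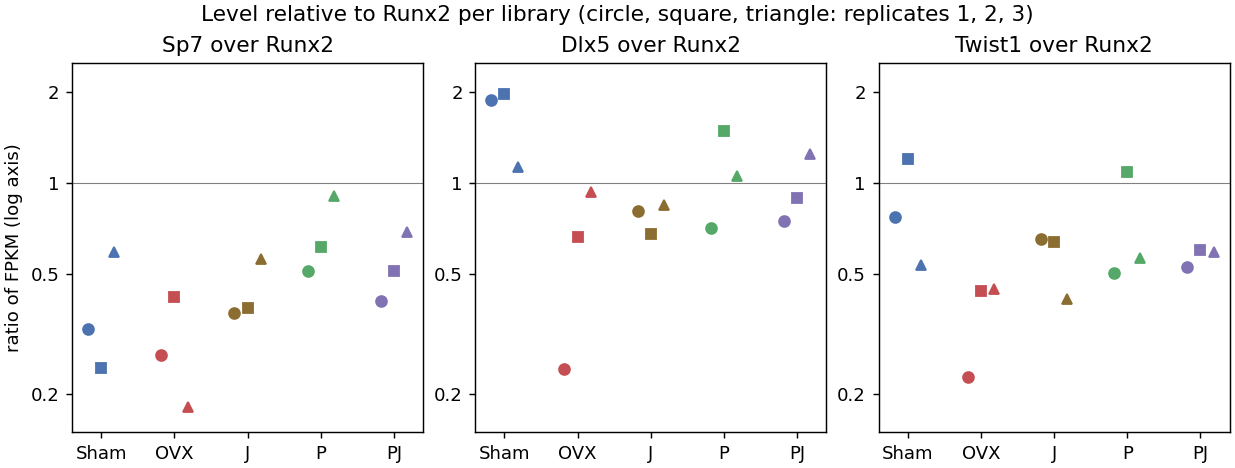
FPKM of Sp7, Dlx5 and Twist1 divided by that of Runx2 in the same library (vertical axes, log scale) in the 5 groups (horizontal axis), with circles, squares and triangles for replicates 1, 2 and 3. The Dlx5 ratio is 1.13 to 1.97 in Sham and 0.243 to 0.932 in OVX, and the Sp7 ratio is 0.512 to 0.907 in P and 0.181 to 0.419 in OVX. The Sp7 ratio in J and PJ overlaps that in OVX.

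The nearest relatives of the members were examined next. Dlx3, a homeodomain factor of bone and skin, fell in OVX by 3.92 ± 0.44 (SE) with an adjusted p of 1.06e-05, from 20.5 ± 5.82 to 0.394 ± 0.242 FPKM (SD, n = 3 each). It rose by 2.64 in P (adjusted p = 0.000595) and by 1.73 in PJ (0.00674). It had a log2 difference of -2.19 from Sham in PJ (adjusted p = 0.0105, but 0.0804 in a fit of those groups alone) and of -2.94 in J (0.000246). Msx1, the close relative of Msx2, fell in OVX by 2.28 ± 0.32 (adjusted p = 6.04e-05) and, where Msx2 did not pass, rose in P by 1.55 (0.00225) and in PJ by 1.42 (0.00321). That difference between Msx1 and Msx2 was not tested. Dlx6, the genomic neighbour of Dlx5, fell in OVX by 0.93 (adjusted p = 0.0482), a call lost in 13 of 26 alternatives and at -0.62 without Sham 3 (0.192). It rose by 1.59 in P (0.00459) and 1.76 in PJ (0.00213). Reads of an antisense transcript known at Dlx6 cannot be told from its own, as the strand of counting is not given.

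Cbfb, the partner of Runx2, did not pass in any comparison, with means of 34.9 ± 5.93 in Sham, 28.8 ± 2.11 in OVX, 37.5 ± 7.03 in J, 41.2 ± 12.6 in P and 43.9 ± 8.34 in PJ (SD, n = 3 each). Against OVX it passed in P without P 2 (0.72, adjusted p = 0.0138) and in PJ without P 1 (0.57, 0.0459), P 2 (0.57, 0.0192) or PJ 3 (0.74, 0.0262), and with array weights in J, P and PJ (0.45, 0.68 and 0.69). It also passed against OVX without Sham 3, P 2 and PJ 3 together, in P (0.72, 0.00311) and PJ (0.74, 0.00211). In a fit of PJ and OVX alone it passed too (0.57, 0.0328). Against Sham it passed with array weights in P (0.52, 0.0135) and PJ (0.54, 0.00401). Without those 3 libraries it passed there in P (0.59, 0.0202) and PJ (0.61, 0.0232). Twist2, the close relative of Twist1, was under the filter, at 0 to 1.20 FPKM over all libraries. With no filter it fell in OVX against Sham by 0.58 ± 0.17 (SE, adjusted p = 0.0183), a call lost in 2 of 26 alternatives. It rose by 0.57 in P against OVX (adjusted p = 0.0311), where 14.5% of genes were called higher, and by 0.52 in PJ against OVX (0.0400), where 18.5% were. These calls were lost in 5 and 11 of 26 alternatives, with an adjusted p of up to 0.128 and 0.146, and that in P without P 2 (0.37, adjusted p = 0.0915). In J against OVX it had 0.31 (adjusted p = 0.386).

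Of 15 tested genes of the families and partners of the members, 8 fell and 2 rose in OVX against Sham (53.3% and 13.3%), a median difference of -0.88, where 28.9% and 25.3% of all genes tested were called lower and higher. Tcf4, which codes for an E protein that pairs with Twist1, fell by 2.01 ± 0.27 (SE), and the E protein gene Tcf3 rose by 1.84 ± 0.31, as did Runx3, a family member known from immune cells, by 1.12 ± 0.38 (adjusted p = 0.0238). The call on Runx3 was lost without Sham 1 (0.69, adjusted p = 0.115), Sham 2, OVX 1 or OVX 3. Runx3 and the Id genes as a set were named after their values were seen. All 4 Id genes, whose products keep E proteins from DNA, were among those that fell. In P and in PJ against OVX, 7 of the 15 (46.7%) rose and 0 fell (medians 0.55 and 0.57), where 24.2% and 29.8% of all genes tested were called higher and 15.0% and 14.6% lower, among them Tcf4 (1.35 and 1.43) and Id3 (1.89 and 2.39). In J against OVX 0 of 15 passed, against 3.27% of all genes called higher, with Id3 at 1.41 (adjusted p = 0.0733), Dlx6 at 1.05 (0.103), Dlx3 at 0.98 (0.186) and Id1 at 0.69 (0.166). Without Sham 3, P 2 and PJ 3 together, 5 of 15 rose in J against OVX, where 1774 of all 14416 genes tested were called higher.

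Of 23 tested genes that modify or signal to these factors, 16 (69.6%) fell and 0 rose in OVX against Sham (median -1.45), where 28.9% of all genes tested were called lower. Yap1 and Wwtr1, coactivators of the Hippo pathway, fell by 2.73 ± 0.24 (adjusted p = 1.81e-06) and 2.71 ± 0.29 (7.55e-06). The growth factor receptor gene Fgfr2 fell by 3.25 ± 0.35 and the BMP receptor gene Bmpr1a by 2.83 ± 0.36. In P against OVX 15 (65.2%) rose and 0 fell (median 1.11), where 24.2% of all genes were called higher, with Yap1 at 2.31, Fgfr2 at 2.44, Bmpr1a at 2.43 and Wwtr1 at 1.95. In PJ against OVX 18 (78.3%) rose and 0 fell (median 1.35), where 29.8% were, with Yap1 at 2.28, Bmpr1a at 2.39, Fgfr2 at 2.30 and Fgfr1 at 2.79. In J against OVX 1 of 23 (4.35%) rose, near the 3.27% of all genes called higher. It was Yap1, by 1.20 ± 0.24 (adjusted p = 0.0202), a call lost without OVX 1 (0.0952), OVX 2, J 1 or J 3, while Fgfr2 (1.22, adjusted p = 0.0559), Bmpr1a (1.05, 0.0938) and the parathyroid hormone receptor gene Pth1r (1.51, 0.0932) did not pass. Without Sham 3, P 2 and PJ 3 together, 7 of 23 rose in J, where 1774 of all 14416 genes tested were called higher.

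The list of known targets of Runx2 and Sp7 holds genes of bone matrix and mineral. Of 14 tested targets, which include all 7 osteoblast markers, 3 (21.4%) fell in OVX against Sham, fewer than the 28.9% of all genes called lower, and the median difference was -1.15. Without Sham 3 it was 2 of 14, with a median of -0.12. Col5a1 fell by 3.37 ± 0.33 (SE), Sparc fell by 3.18 ± 0.40 and Spp1 fell by 2.85 ± 1.02. The call on Spp1 (adjusted p = 0.0314) rested on Sham 3, with an FPKM of 289.9, 121.1 and 3511 in Sham 1, 2 and 3 and of 48.1, 107.2 and 61.4 in OVX. Without Sham 3 the difference was -1.45 ± 0.75 (adjusted p = 0.131). Alpl, the bone alkaline phosphatase, had -1.39 ± 0.59 (adjusted p = 0.0635). In P against OVX 8 of 14 (57.1%) rose (median 2.61), where 24.2% of all genes were called higher, with the osteopontin gene Spp1 at 4.75 ± 1.02, Col1a2 at 3.08 ± 0.87, Col5a1 at 3.00 ± 0.33 and Sparc at 2.89 ± 0.40. In PJ against OVX 7 (50.0%) rose (median 2.45), where 29.8% were, with Spp1 at 4.78, Sparc at 2.7, Col5a1 at 2.57 and Tnfsf11, the osteoclast-inducing ligand, at 1.92. Both counts depended on single libraries: 3 rose in P without P 1 and 4 without P 3, and 3 rose in PJ without PJ 1 or PJ 2 and 12 without PJ 3. Leaving out OVX 1, 2 or 3 gave 5, 4 and 4 in P, and OVX 2 or 3 gave 3 and 4 in PJ. With Sham 3, P 2 and PJ 3 left out together 13 rose in each, with no filter 5 and 4, with array weights 13 and 14, and with voom 5 in P. Of all 14416 genes tested, 4633 in P and 5037 in PJ were called higher without the 3 libraries. With array weights it was 5270 and 6220, against 3486 and 4298 in the main fit. P 2 and PJ 3 were picked for low sums of 7 of these 14 targets. The higher counts without them were thus partly built in and are no separate support. In J against OVX 2 (14.3%) rose, where 3.27% of all genes were called higher. They were Sparc, by 1.80 (adjusted p = 0.0259), and Col5a1, by 1.36 (0.0331), calls lost in 6 and 8 of 26 alternatives, both without OVX 1, OVX 2 or any 1 of the J libraries, while Spp1 (3.16, adjusted p = 0.0831) and Col1a2 (2.36, 0.117) did not pass. Without Sham 3, P 2 and PJ 3 together, 7 of 14 rose in J, where 1774 of all 14416 genes tested were called higher.

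Of 20 tested other regulators of bone, cartilage and fat cells, 12 (60%) fell and 2 (10.0%) rose in OVX against Sham, the latter Lef1 and Sox6, beside 28.9% and 25.3% of all genes tested. In J against OVX 2 (10.0%) rose, Hey1 and Prrx1, and Sox6 fell, beside 3.27% and 2.79%. Without OVX 1, OVX 2, J 1 or J 3 none of these 3 calls in J was left. In P against OVX 12 (60%) rose and 1 fell, beside 24.2% and 15.0%, and in PJ against OVX 13 (65.0%) rose and 1 fell, beside 29.8% and 14.6%, in both Sox6, a factor of cartilage and of red cell precursors. Without OVX 1, OVX 2 or P 3 the 12 in P became 6, 7 and 7. Sox6, Hey1, Prrx1 and Lef1 were named after their values were seen.

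**Figure D4:**
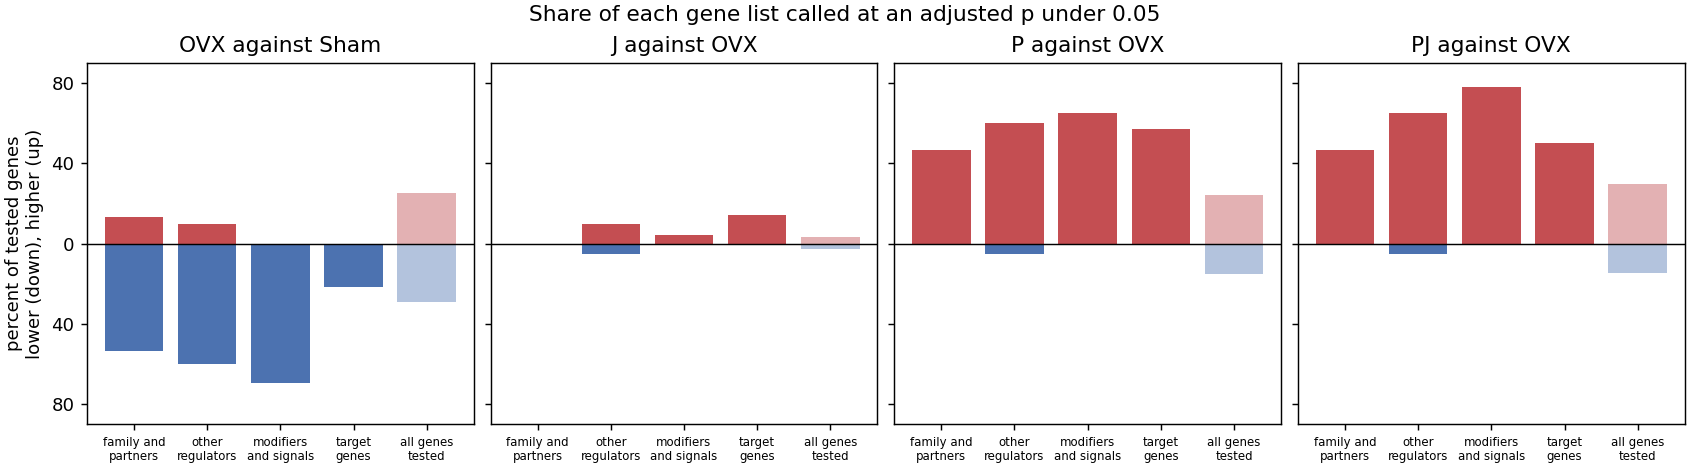
Percent of the tested genes of 4 lists called higher (upward) or lower (downward) at an adjusted p under 0.05 in 4 comparisons, with all 14416 genes tested in paler bars. The modifiers and signals have 16 of 23 genes lower in OVX against Sham and 18 of 23 higher in PJ against OVX, where 28.9% and 29.8% of all genes were called in those directions.

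The genes most like each member across the 15 libraries were found by Pearson's r of log2(FPKM + 1), as a description, since the libraries fall into groups and share tissue content. For Runx2 they were Igsf3 (0.980), the lysosomal sulfatase gene Arsb (0.976) and Lrp4 (0.972), a receptor for sclerostin. For Sp7 they were Igsf3 (0.963), Slc37a2 (0.962) and Tm4sf19 (0.960). The mean FPKM of Igsf3 was 11.9 in Sham, 4.31 in OVX, 10.9 in J, 19.4 in P and 21.9 in PJ. For Dlx5 they were Mxra8 (0.969), Fgfr3 (0.966) and Scarf2 (0.966), and for Twist1 Mxra8 (0.972), Rcan2 (0.969) and Mfap2 (0.965).

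For Msx2 they were Actg2 (0.955), Neu2 (0.950) and Cnn1 (0.948), of which Actg2 and Cnn1 are known from smooth muscle. Cnn1 had a mean FPKM of 6.72 in Sham, 0.146 in OVX, 0.858 in J, 1.85 in P and 0.751 in PJ. Among the members, the same measure was 0.940 for Runx2 with Sp7 and 0.949 for Dlx5 with Twist1, and -0.13 for Msx2 with Runx2.

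**Figure D5:**
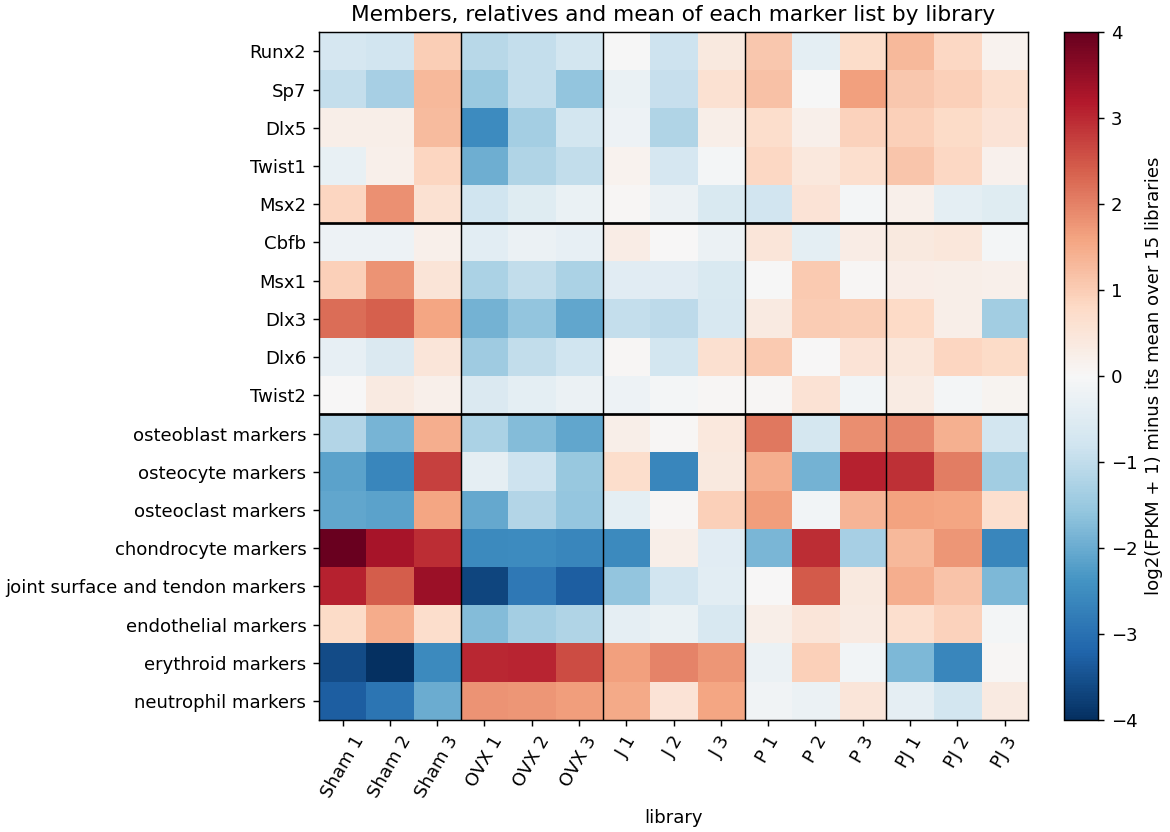
Heat map of log2(FPKM + 1) minus its mean over the 15 libraries (colour) for the 5 genes, 5 relatives or partners and the mean of 8 marker lists (rows) in each library (columns). Sham 3, P 1, P 3, PJ 1 and PJ 2 are high in Runx2, Sp7 and osteoblast markers, while Msx2, Msx1, Dlx3 and chondrocyte markers are high in all 3 Sham libraries. Before the mean is taken off, chondrocyte markers are as high in P 2 (5.72) as in Sham 3 (5.70), with PJ 1 at 4.05 and PJ 2 at 4.53. Msx2 in P 2 (1.34) is near that in Sham 3 (1.40).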

How the data were processed

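The deposited files give 1 FPKM value per gene and library, made by the authors with fastp 0.23.4, STAR 2.7.11a and featureCounts 2.0.6 on build mRatBN7.2, per the submitters' processing notes. The strand setting and the annotation are not given in the sources used here. The column headed as a count holds FPKM, and the column headed FPKM was empty in all 15 files. Reads were recovered from the steps of the FPKM values for 24205 of 24207 genes above 0, within 0.05 of whole numbers, and made up 99.925% to 99.984% of the totals. Of recovered counts from 1 to 20, 59.9% were even, so 1 read pair may count as 2 reads in the totals.

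Values were analysed as log2(FPKM + 1) in 1 limma 3.58.1 fit over all libraries (R 4.3.3), with variances that follow the mean and 10 residual degrees of freedom. The two-sided tests covered the 14416 genes whose mean FPKM was 1 or more, with Benjamini-Hochberg adjustment over all of them and a threshold of 0.05. Msx2 fell under this filter, and its values come from the same fit with no filter, a choice made after seeing the data. The members, gene lists and the 3 libraries left out together were chosen with earlier results of these data known. Named genes were the 5 members, up to 4 genes of smallest p for each list and comparison, 5 relatives or partners, and the 3 genes most like each member. The names outside this rule are given as such beside their values. Alternatives covered the pseudocount, filter, scaling, weights, samples, replicate block, voom on recovered reads and leaving out libraries.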

Additional observations from a re-analysis of the deposited data

How the results depend on the processing

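Counts of called members in OVX against Sham, P against OVX, PJ against OVX and the F test stayed within 1.5 times the reported ones in every alternative run. In J against OVX, where 0 were called, 1 was called with a pseudocount of 0.1, with median-ratio scaling and without mitochondrial and globin genes in the total, 2 with array weights, 2 without Sham 3, P 2 and PJ 3 together, and 0 to 1 when 1 library was left out. With array weights 2 were called in P against Sham, 3 in PJ against Sham, 2 in P against J and 4 in PJ against J. Beside them 6090, 6959, 4197 and 7405 of all 14416 genes tested were called. Without Sham 3, P 2 and PJ 3 together the counts of members were 2, 2, 3 and 3, beside 4528, 3305, 3154 and 5378 of all genes tested. Leaving out 1 library gave 0 to 1 in P against Sham, 0 to 2 in PJ against Sham and 0 to 1 in PJ against J. With no filter, Msx2 was the 1 member called in J against Sham. Of the gene lists in J against OVX, 6 of 15 family genes and partners, 9 of 23 modifiers, 6 of 14 targets and 7 of 20 other regulators rose with array weights. Of all 14416 genes tested, 2734 were called higher in J against OVX with array weights, against 471 in the main fit. Without Sham 3, P 2 and PJ 3 together it was 1774. The 3 libraries were picked for bone marker levels unlike those of their groups, Sham 3 high and P 2 and PJ 3 low. Leaving them out narrows the groups by construction. For Runx2, Sp7, Dlx5 and Twist1 it also lowers Sham and raises P and PJ. Runx2 in P against Sham went from 0.62 to 1.63, and Sp7 from 1.26 to 2.55. Calls added in this way are therefore no separate support. The cause of the other changes was not tested.

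The signs that turned belonged to differences that did not pass. Runx2 in J against Sham was 0.09 without mitochondrial and globin genes, 0.52 with array weights, 0.00 with voom, 0.56 without the 3 libraries and -0.31 to 0.56 with 1 library left out. Dlx5 in P against Sham was -0.05 after rescaling to TPM, -0.06 with median-ratio scaling and -0.14 to 0.37 with 1 library left out, and in PJ against Sham -0.01 with median-ratio scaling. Sp7 in J against Sham was -0.35 to 0.96 with 1 library left out. In PJ against P, Sp7 was 0.06 under TPM and -0.51 to 0.31 with 1 library left out, Twist1 -0.03 with median-ratio scaling, -0.01 without mitochondrial and globin genes and -0.14 to 0.33 with 1 library left out, Runx2 -0.15 to 0.59 with 1 library left out and Dlx5 -0.05 to 0.30 with 1 library left out. Msx2 in PJ against P was 0.02 with a pseudocount of 0.1, 0.36 with array weights, 0.35 with voom, 0.34 without the 3 libraries and -0.45 to 0.20 with 1 library left out. In P against J it was -0.18, -0.12 and -0.16 under the last 3 of these and -0.16 to 0.50 with 1 library left out, in PJ against J -0.17 to 0.20 with 1 library left out, and its additivity term was 0.03 with array weights and 0.09 without the 3 libraries.

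Rescaling to TPM moved the median of all genes in OVX against Sham from -0.04 to -0.14 and in PJ against OVX from 0.22 to 0.34, and median-ratio scaling set it to 0.00 and 0.01. With the replicate number as a block the members called were 2 in OVX against Sham, 4 in P against OVX, 4 in PJ against OVX, 3 in the F test and 0 elsewhere. Deviations of libraries with the same number had a mean correlation of 0.013 (-0.409 to 0.488 over 30 pairs), and 7 of 15 libraries were closest to their own number, so the numbers were not taken to pair the samples. Depth limits Msx2, with 0 to 142 reads in each library outside Sham.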
